A study of Homo sapiens with 4 samples.

Results

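Untreated OVCA420 cells that were rich in *TOP2A* RNA were compared with untreated OVCA420 cells that held little of it. *TOP2A* (ENSG00000131747, GRCh38 chr17:40388525-40417896, minus strand) encodes DNA topoisomerase II alpha. Control cells were kept where over 200 genes were seen and no more than 20% of unique molecular identifiers (UMIs, which tag single RNA molecules) fell on mitochondrial genes, and the *TOP2A* UMIs of each cell were scaled to 10000 UMIs. The groups were chosen by these *TOP2A* values: 375 cells with 5 or more per 10000 were called TOP2A-high, and 234 cells with under 1 per 10000 were called TOP2A-low. The 609 cells were taken from 933 retained Control cells and from 3144 retained cells of the series. The 324 Control cells from 1 to under 5 per 10000 were called TOP2A-middle and entered neither group.

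OVCA420 is a line of ovarian cancer cells of epithelial type. Droplet-based 3′ single-cell RNA-seq was performed on 1 untreated library (Control) and on 1 library each of cells given 10 ng/mL TGF-β1, a cytokine that induces epithelial-mesenchymal transition, for 1, 3 or 7 days. Only cells of the untreated library entered the comparison, so both groups were cells of the same library, with no treatment. With 1 library of 1 cell line there were no replicates, so no test was made, no p-value is given, and the intervals below cover counting error only. "Higher" and "lower" below mean at least 1.5-fold between the groups in CPM (a gene's summed UMIs per 1000000 UMIs of the group), a log2 ratio of 0.58 or more in size.

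Topoisomerase II alpha cuts and reseals both strands of DNA so that sister chromatids can be disentangled and chromosomes condensed before they separate. Its RNA and protein accumulate from S phase to mitosis and are removed when cells divide, which is why the gene is used as a marker of proliferating cells. Genes needed for DNA replication peak earlier in the cycle, under E2F transcription factors, and genes of mitosis peak later, under the MuvB, B-MYB and FOXM1 factors that act through CHR elements of promoters.

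Of 3372 Control barcodes listed, the first 941 were analysed here, and 8 of these were removed by the mitochondrial limit and 0 by the gene limit. UMIs per cell ranged from 8455 to 141664, with a median of 30270. The epithelial keratins *KRT7*, *KRT8* and *KRT18* were found in both groups (325, 999 and 794 CPM in TOP2A-high and 383, 1177 and 890 CPM in TOP2A-low cells). Of 12 markers of other cell types, 4 in TOP2A-high and 6 in TOP2A-low cells had no UMI, *MS4A1*, *PECAM1*, *CLDN5* and *COL1A2* in both, and *PTPRC* and *CD3E* in TOP2A-low cells also. Their summed level was 15.6 CPM in TOP2A-high and 14.4 CPM in TOP2A-low cells, nearly all of it *ALB* (8.11 and 9.14 CPM) and *CDH5* (6.41 and 4.43 CPM). The doublet caller Scrublet marked 5 TOP2A-high, 4 TOP2A-middle and 0 TOP2A-low cells, and 17 of the 933 barcodes were also listed for a treated library (8 in TOP2A-high and 1 in TOP2A-low cells). These cells were retained.

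The lowest, median and highest *TOP2A* values were 5.00, 10.2 and 46.4 per 10000 in TOP2A-high cells and 0, 0.402 and 0.989 per 10000 in TOP2A-low cells. These values were set by the rule and are given as a description. The cell just inside the upper limit held 13 *TOP2A* UMIs of 25997 and the one just under it 15 of 30402 (4.93 per 10000). At the lower limit, the last TOP2A-low cell held 3 of 30322 (0.989 per 10000) and the next cell 3 of 29601 (1.01 per 10000). The limits cut through a continuous range, with 109 cells between 4 and under 6 per 10000 and 77 between 0.8 and under 1.2. Of the TOP2A-low cells, 73 held no *TOP2A* UMI.

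TOP2A-high cells were somewhat deeper. Their UMIs per cell had a median of 32961 (lowest 8455, highest 141664), against 28335.5 (lowest 8639, highest 104060) in TOP2A-low cells, a ratio of 1.16. The groups overlapped over nearly their whole range. Genes detected per cell had a median of 5555 in TOP2A-high and 4976 in TOP2A-low cells, while the median mitochondrial share was 8.30% and 8.27%. When the retained cells were split into 4 classes of equal size by UMIs, TOP2A-high cells made up 33.8% (95% exact binomial interval 27.7–40.2%) of the shallowest class and 52.8% (46.2–59.3%) of the deepest, and TOP2A-low cells 28.6% (22.9–34.9%) and 18% (13.3–23.6%).

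**Figure D1:**
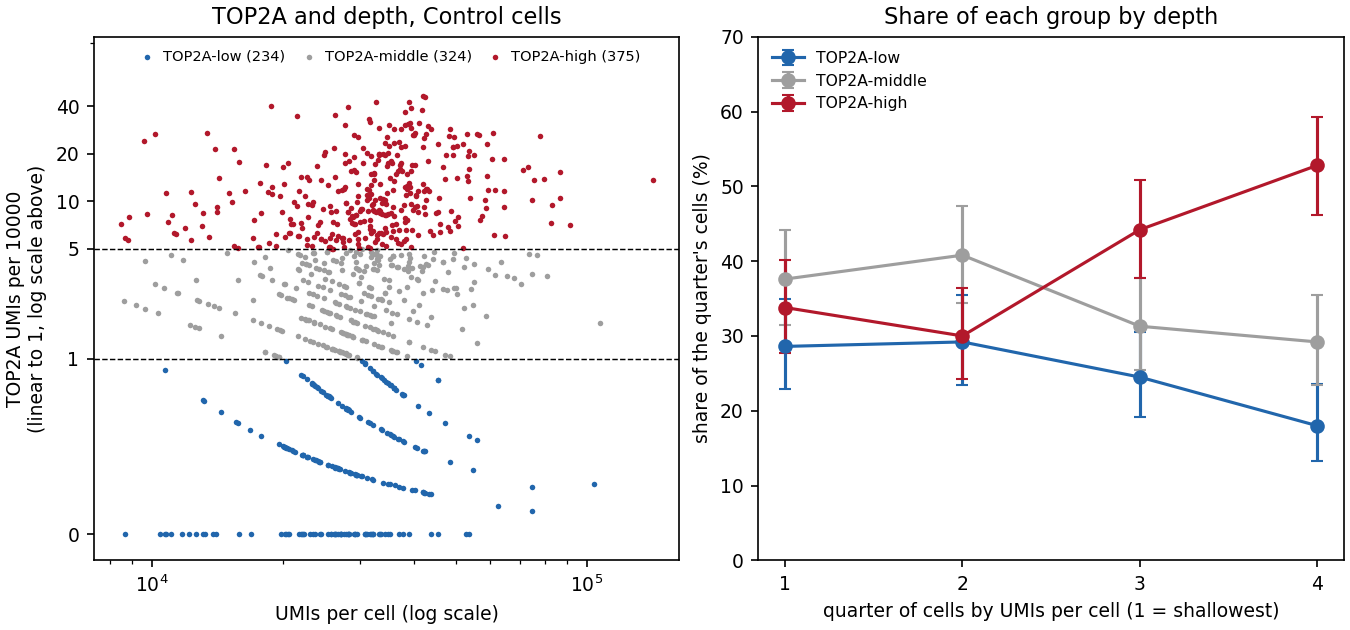
Left: *TOP2A* UMIs per 10000 (linear to 1, log scale above) against UMIs per cell (log scale) for the 933 retained Control cells, 1 point a cell, with dashed lines at the limits of 1 and 5. Right: share of each of 4 equal classes of cells by UMIs that fell in each group, with exact binomial 95% intervals. The TOP2A-high share is 33.8% in the shallowest and 52.8% in the deepest class.

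The 2 groups were then compared over the other genes. Of 7557 genes with at least 10 CPM over all retained Control cells, *TOP2A* left out, 533 (7.05%) were at least 1.5-fold higher in TOP2A-high cells and 145 (1.92%) at least 1.5-fold lower. At least 2-fold, 210 genes (2.78%) were higher and 27 (0.357%) lower. The log2 ratio ran from -2.43 to 4.73 with a median of 0.08, so the genes that were higher also reached much larger ratios. Of the 29995994 UMIs behind the 10 CPM limit, TOP2A-high cells gave 12949194 and TOP2A-low cells 7002502. A gene held mainly by TOP2A-high cells therefore passed the limit at a lower level than one held mainly by TOP2A-low cells. With no such limit, 1862 genes were higher and 1486 lower, and 885 and 734 at least 2-fold. How far the limit shaped the uneven split was not tested. The split between directions moved with the scaling: median-of-ratios size factors gave 425 higher and 215 lower genes, and UMIs per cell without scaling, where the median log2 ratio of all genes was 0.28, gave 1187 and 56. Ratios per cell differ from those of CPM by the same factor for every gene, that of the mean UMIs per cell (34531 in TOP2A-high and 29925 in TOP2A-low cells), so the change of the split per cell follows from the scaling alone.

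**Figure D2:**
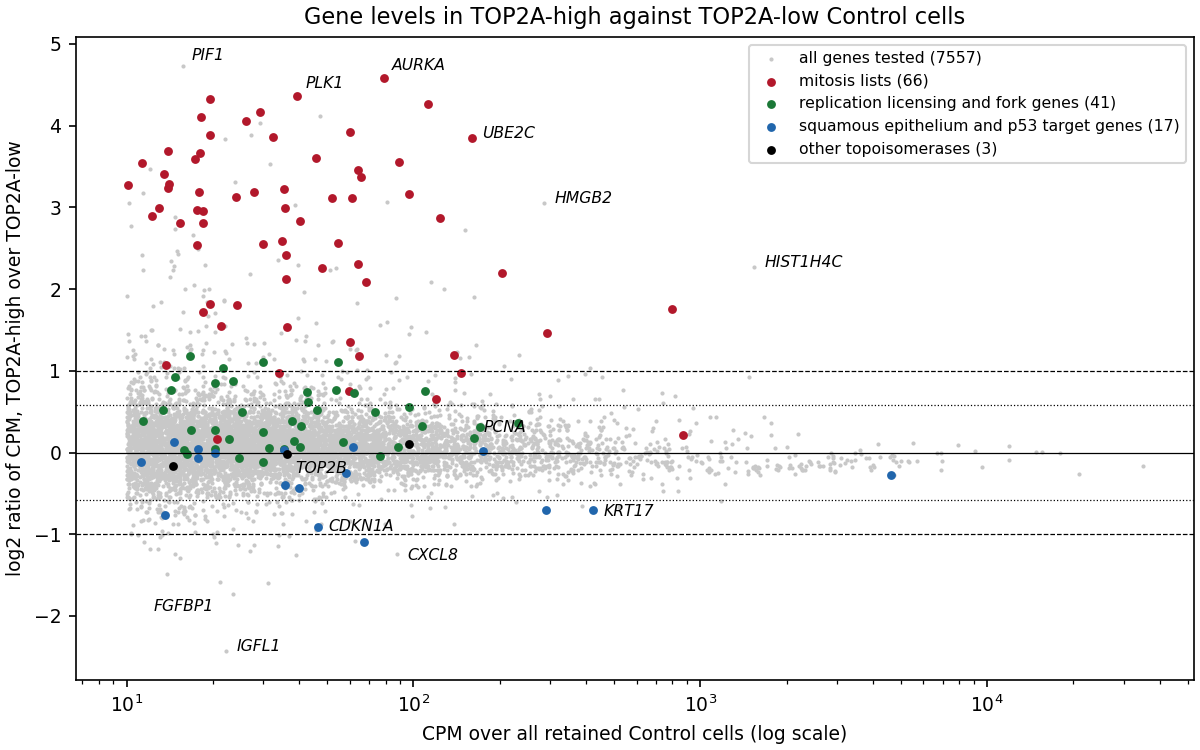
Log2 ratio of CPM between TOP2A-high and TOP2A-low Control cells against CPM over all retained Control cells (log scale), 1 point for each of the 7557 genes tested; dotted lines mark 1.5-fold and dashed lines 2-fold. The genes of the 3 mitosis lists run from 0.16 for *WEE1* to 4.58 for *AURKA*, the replication genes from -0.12 to 1.18, and the highest and lowest of all are *PIF1* at 4.73 and *IGFL1* at -2.43.

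The 3 lists of mitosis genes had the highest medians of the lists compared. Beside the counts of each list, 7.05% of all genes tested were higher and 1.92% lower. Of 17 mitotic kinases and cyclins tested, 16 were higher and 0 lower, with a median log2 ratio of 2.99. *AURKA* (ENSG00000087586, chr20:56369389-56392337), the kinase of spindle poles, reached 154 CPM (95% Poisson interval 147–161) in TOP2A-high and 6.43 CPM (4.69–8.60) in TOP2A-low cells, a log2 ratio of 4.58 (4.15–5.04). Among single cells *AURKA* had a lowest, median and highest value of 0, 0.981 and 6.18 per 10000 in TOP2A-high cells and of 0, 0 and 1.29 in TOP2A-low cells. The 2 distributions overlapped at 0 and above it, and 83.2% of TOP2A-high and 16.7% of TOP2A-low cells held an *AURKA* UMI (77.5% and 13.7% with each cell thinned to 18000 UMIs). The library held no cell type known to lack these RNAs, so the share of such UMIs that came from free RNA was not measured.

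*PLK1* (ENSG00000166851, chr16:23677656-23690367), a kinase that drives entry into mitosis and spindle assembly, was at 76.2 CPM (71.5–81.1) against 3.71 CPM (2.43–5.44). Its median per 10000 was 0.360 in TOP2A-high cells, with a highest value of 3.36, and 0 in TOP2A-low cells, with a highest value of 1.29. *AURKB*, the kinase of the chromosomal passenger complex, was at 54.0 CPM (50.1–58.1) against 3.00 CPM (1.86–4.58). *NEK2*, which separates centrosomes, had a log2 ratio of 3.66 (2.96–4.46). *CCNB1* and *CDK1*, the cyclin and kinase of the mitotic complex, chosen after their values were seen, had log2 ratios of 3.61 (3.18–4.07) and 3.11 (2.77–3.47). The exception in the list was *WEE1*, a kinase that holds CDK1 inactive, with 20.8 CPM in TOP2A-high and 18.6 CPM in TOP2A-low cells. *PKMYT1*, the other CDK1-inhibiting kinase of the list, had a log2 ratio of 0.97 (0.69–1.26), the lowest of the 16 that were higher.

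All 35 spindle, kinesin and kinetochore genes tested were higher, with a median log2 ratio of 3.19. *CENPE*, a kinetochore motor, was at 37.5 CPM (34.2–40.9) against 1.86 CPM (0.988–3.17). *CENPF* (ENSG00000117724, chr1:214603185-214664574), a kinetochore protein that accumulates in G2, was at 215 CPM (208–224) against 11.1 CPM (8.80–13.9), and was detected in 93.6% of TOP2A-high and 25.6% of TOP2A-low cells (89.6% and 18.4% thinned). *KIF2C*, a microtubule-depolymerizing kinesin, *NUF2*, a subunit of the NDC80 complex, *CENPA*, the centromeric histone H3, and *HMMR*, a spindle-binding protein, had log2 ratios of 4.11, 4.06, 3.92 and 3.88. The smallest ratios in the list were those of *CENPN* (0.75) and *SKA2* (0.66). The list was therefore uneven in size but not in direction.

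Of 14 genes of mitotic exit and cytokinesis, 13 were higher, with a median of 2.34. *UBE2C*, the ubiquitin-conjugating enzyme of the anaphase-promoting complex, was at 311 CPM (302–321) against 21.6 CPM (18.3–25.3). *RACGAP1* and *CIT*, which act at the midbody, had log2 ratios of 3.19 and 2.89. *ANAPC11*, a catalytic subunit of the anaphase-promoting complex, was at 927 against 802 CPM. Of 16 condensation and cohesion genes, 14 were higher with a median of 1.59. The condensin I subunits *NCAPH* and *NCAPG* had log2 ratios of 2.66 and 2.46, and *MKI67*, which coats mitotic chromosomes, reached 137 CPM (130–143) against 16.4 CPM (13.6–19.7). The cohesin subunits *STAG1* and *STAG2* were the members between the limits, at 0.53 and 0.37.

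The highest ratio among all genes tested was that of *PIF1*, a DNA helicase, with 34.2 CPM (31.1–37.5) against 1.29 CPM (0.588–2.44) and a log2 ratio of 4.73 (3.80–5.87). It rested on 443 UMIs in TOP2A-high and 9 in TOP2A-low cells. *PRR11* and *GTSE1*, genes of late cycle cells, had log2 ratios of 4.12 and 4.03. Of the abundant genes, with at least 200 CPM over all Control cells, the highest ratios were those of *HMGB2*, a chromatin protein (448 against 54.3 CPM, log2 ratio 3.05), *HIST1H4C*, a histone H4 gene (2208 against 457 CPM, 2.27), *BIRC5*, the passenger protein survivin (304 against 66.3 CPM, 2.20), *UBE2S*, the partner of UBE2C (1121 against 332 CPM, 1.76) and *CKS1B*, a CDK subunit (401 against 146 CPM, 1.46). Histone and HMG genes have near-identical copies whose reads may not be told apart, so the values of *HIST1H4C* and *HMGB2* are uncertain to that extent.

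The other topoisomerases did not share the difference of *TOP2A*. *TOP2B*, the second type II enzyme, was at 34.9 CPM (31.8–38.3) in TOP2A-high and 35.3 CPM (31.0–40) in TOP2A-low cells, with a median per 10000 of 0.314 and 0.324, a log2 ratio of -0.02 (-0.24 to 0.21). *TOP1* was at 96.2 against 89.5 CPM (0.10, -0.04 to 0.24) and the mitochondrial enzyme *TOP1MT* at 14.6 against 16.4 CPM (-0.17, -0.51 to 0.18). *TOP3A* and *TOP3B*, under 10 CPM, had log2 ratios of 0.23 (-0.32 to 0.80) and 0.08 (-0.46 to 0.64). Each interval held 0.

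Promoter sequences of these genes were compared because the mitosis genes moved together. Promoters were taken from RefSeq (GRCh38.p14, 250 bases before to 50 after the first listed start), and 6209 of the 7557 genes tested had one in the table. The motifs searched on both strands were TTTGAA (a form of the CHR element), CCAAT (bound by NF-Y) and 4 forms of an E2F site (TTTGGCGC, TTTGCCGC, TTTCGCGC and TTTCCCGC). Other forms of the CHR element were not searched for, so a promoter without TTTGAA was not shown to lack one. Matches of different motifs may share bases, and each was counted. The bases before the start are printed 5′ to 3′ on the strand of the gene, with matches to any motif in capitals (on the other strand CCAAT reads ATTGG). *PLK1*, *CENPE*, *CENPF* and *AURKB* are shown as the mitosis genes of highest ratio with a promoter in the table, and *TOP2A* and *PCNA*, added after the values were seen, as the gene of the rule and as a replication gene for contrast.
PLK1, chr16:23678639-23678888, plus strand: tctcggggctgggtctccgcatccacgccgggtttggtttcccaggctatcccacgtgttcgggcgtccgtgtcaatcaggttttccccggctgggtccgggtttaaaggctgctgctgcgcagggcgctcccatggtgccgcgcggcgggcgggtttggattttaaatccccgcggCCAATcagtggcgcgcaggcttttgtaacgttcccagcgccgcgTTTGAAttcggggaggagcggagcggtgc
CENPE, chr4:103198344-103198593, minus strand: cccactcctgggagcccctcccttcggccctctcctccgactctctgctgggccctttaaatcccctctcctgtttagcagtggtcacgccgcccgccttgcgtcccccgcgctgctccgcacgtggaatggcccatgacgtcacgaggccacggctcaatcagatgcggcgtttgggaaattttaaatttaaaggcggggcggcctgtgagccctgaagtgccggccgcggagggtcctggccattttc
CENPF, chr1:214602945-214603194, plus strand: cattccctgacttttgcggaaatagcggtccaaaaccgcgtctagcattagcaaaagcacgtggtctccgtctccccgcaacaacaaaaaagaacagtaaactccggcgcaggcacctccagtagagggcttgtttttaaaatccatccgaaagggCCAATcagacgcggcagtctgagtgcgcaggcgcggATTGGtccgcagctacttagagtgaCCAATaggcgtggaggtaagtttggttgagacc
AURKB, chr17:8210226-8210475, minus strand: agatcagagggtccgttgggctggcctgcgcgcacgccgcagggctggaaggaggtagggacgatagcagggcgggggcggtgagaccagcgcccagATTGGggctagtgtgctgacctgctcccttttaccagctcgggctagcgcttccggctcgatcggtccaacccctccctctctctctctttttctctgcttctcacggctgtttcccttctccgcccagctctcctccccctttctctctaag
TOP2A, chr17:40417897-40418146, minus strand: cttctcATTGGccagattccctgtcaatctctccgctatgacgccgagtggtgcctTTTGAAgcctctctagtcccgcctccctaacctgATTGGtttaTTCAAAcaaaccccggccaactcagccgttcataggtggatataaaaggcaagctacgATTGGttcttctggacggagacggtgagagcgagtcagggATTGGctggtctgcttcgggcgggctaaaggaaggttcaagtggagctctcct
PCNA, chr20:5126623-5126872, minus strand: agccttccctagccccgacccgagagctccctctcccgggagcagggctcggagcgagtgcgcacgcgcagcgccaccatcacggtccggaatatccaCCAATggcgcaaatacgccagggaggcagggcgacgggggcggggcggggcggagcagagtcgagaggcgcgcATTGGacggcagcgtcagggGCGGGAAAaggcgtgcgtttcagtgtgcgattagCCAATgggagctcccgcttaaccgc

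The *PLK1* promoter held a CCAAT match 73 bases before the start and TTTGAA 29 bases before it. *TOP2A* held 4 CCAAT and 2 TTTGAA matches, and *CENPF* 4 CCAAT matches, 1 of them 12 bases after the start, with TTTGAA 40 bases after the start, beyond the bases printed. *AURKB* held 1 CCAAT match, and none of the motifs was found in the window of *CENPE*. *PCNA* held 3 CCAAT matches and an E2F site, and no TTTGAA.

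Among genes at least 2-fold higher, TTTGAA was found in 44.8% of promoters (81 of 181), and it was found in 28.5% of those at least 1.5-fold higher (127 of 446) and in 3.74% of those at least 1.5-fold lower (4 of 107). The share was 9.5% over all genes tested and 15.4% over all 27305 promoters of the table. It was 53.8% for mitotic kinases and cyclins (7 of 13), 65.6% for spindle genes (21 of 32), 66.7% for exit and cytokinesis genes (8 of 12) and 0 of 35 for replication genes. Replication genes instead held an E2F site in 48.6% of promoters (17 of 35), against 9.39% of genes at least 2-fold higher, 6.07% of genes tested and 3.33% of the table. CCAAT was found in 62.4% of the promoters of genes at least 2-fold higher, 62.9% of replication promoters and 37.3% over all genes tested. Where TTTGAA was present, it lay from 100 bases before to 50 after the start in 64 of 81 promoters (79.0%) of genes at least 2-fold higher and in 40.7% of those of all genes tested. A match describes the letters of a window and is not evidence that a factor bound there.

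Replication genes differed much less than mitosis genes between the 2 groups. Of 41 licensing and fork genes tested, 13 were higher and 0 lower, with a median log2 ratio of 0.36. Of all genes tested, 7.05% were higher, and their median was 0.08. The highest were *TIMELESS*, of the fork protection complex (20.4 against 9.0 CPM, 1.18), the clamp loader subunit *RFC3* (63.7 against 29.4 CPM, 1.11), the GINS subunit *GINS1* (34.6 against 16.0 CPM, 1.11) and *CDC45*, which with GINS and MCM forms the helicase (22.4 against 11 CPM, 1.03). *PCNA* (ENSG00000132646, chr20:5114953-5126626), the sliding clamp, was at 139 CPM (133–145) in TOP2A-high and 122 CPM (114–131) in TOP2A-low cells, with medians of 1.10 and 0.922 per 10000. The licensing factor *CDC6* and the helicase subunits *MCM5* and *MCM6*, named after their values were seen, had log2 ratios of -0.04 (-0.21 to 0.13), 0.05 (-0.22 to 0.32) and -0.12 (-0.38 to 0.15). Each of these 3 intervals held 0.

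Of 16 nucleotide synthesis genes, 5 were higher, beside 7.05% of all genes tested, with a median of 0.32 over the list. The ribonucleotide reductase subunits *RRM2* and *RRM1* were at 212 against 32.3 CPM and 58.8 against 23.6 CPM, and thymidylate synthase *TYMS* and thymidine kinase *TK1* had log2 ratios of 1.35 and 1.23. Of 12 homologous recombination and Fanconi genes, 9 were higher with a median of 0.83, led by *RAD51AP1* (38.2 against 8.43 CPM, 2.18), *RAD54L* (1.5), *BLM* (1.5) and *FANCD2* (1.40). Of 12 histone variant and HMG genes, 6 were higher, with *H2AFX*, the histone of DNA break signalling, at 187 against 46.8 CPM and *H2AFZ* at 1754 against 924 CPM. Among 71 replication-dependent histone genes 4 reached 10 CPM, and 2 of them were higher, *HIST1H4C* and *HIST3H2A* (47.6 against 18.3 CPM).

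Regulators of the cycle did not move in 1 direction. Of 15 G1 cyclins, CDKs, inhibitors and RB family genes, 5 were higher and 1 lower, beside 7.05% and 1.92% of all genes tested. The INK4 inhibitors *CDKN2C* (78.2 against 16.3 CPM, 2.26) and *CDKN2D* (30.3 against 7.57 CPM, 2.00) and the Cip/Kip inhibitor *CDKN1B* (28.0 against 11.9 CPM, 1.24) were higher, and the Cip/Kip inhibitor *CDKN1A* was lower, so inhibitors of CDKs were found on both sides. Of 11 E2F, MuvB and FOXM1 regulators, 4 were higher: *FOXM1* itself (76.5 against 16.3 CPM, 2.23), *MYBL2*, which encodes B-MYB (123 against 42.3 CPM, 1.54), the repressor *E2F7* (15.4 against 6.14 CPM, 1.32) and the MuvB subunit *LIN54* (12 against 7.00 CPM, 0.77). Cyclin D1, *CCND1*, also named after its value was seen, was at 215 against 217 CPM. Of 7 tubulin and stathmin genes 5 were higher with a median of 0.89, led by the gamma-tubulin gene *TUBG1* (192 against 98.7 CPM), and of 7 lamina and envelope genes 4 were higher, *LMNB1* (1.47), *TMPO* (1.31), *LBR* (1.19) and *LMNB2* (0.77). Tubulin genes have near-identical copies whose reads may not be told apart, so their values are uncertain to that extent.

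**Figure D3:**
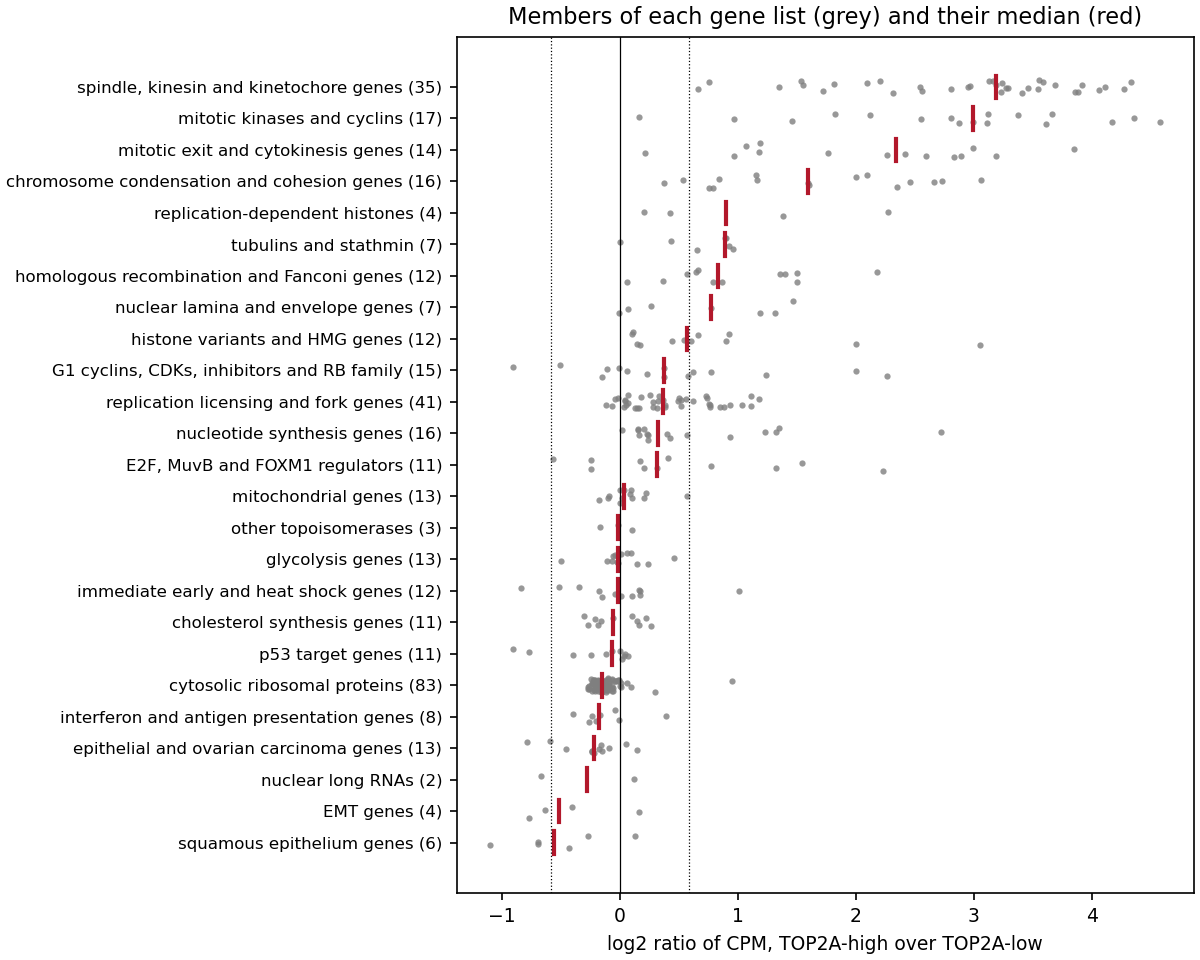
Log2 ratio of CPM between TOP2A-high and TOP2A-low Control cells for the tested members of each gene list (grey points, number in parentheses) and the list's median (red bar), with dotted lines at 1.5-fold. The medians run from -0.56 for squamous epithelium genes to 3.19 for spindle, kinesin and kinetochore genes.

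The level of each gene was next followed over 6 classes of *TOP2A* in the retained Control cells: 0 (73 cells), above 0 to under 1 (161), 1 to under 5 (324), 5 to under 10 (184), 10 to under 20 (126) and 20 or more per 10000 (65). The median UMIs per cell of these classes were 26788, 29542, 28909, 29812, 34508 and 38219. The mitosis genes *AURKA*, *PLK1* and *CENPF* were higher in each class than in the one before. *AURKA* was at 5.24, 6.87, 33.0, 84.7, 171 and 280 CPM in this order, *PLK1* at 2.10, 4.32, 16.7, 41.5, 83.1 and 143 CPM, and *CENPF* at 10.5, 11.4, 48.0, 121, 241 and 384 CPM. For each of the 3, the counting intervals of the 2 lowest classes overlapped and those of the other neighbours did not. These 3 genes were picked for a high ratio between the same cells. A rise from the classes under 1 to those of 5 or more was therefore largely set by that choice. Of the 210 genes at least 2-fold higher, 144 (68.6%) were highest in the top class, 41 at 10 to under 20 and 24 at 5 to under 10. The 210 genes were picked for a higher level in TOP2A-high cells, which make up these 3 classes. A peak at 5 or more per 10000 was therefore largely set by that choice. Of the 17 mitotic kinases and cyclins, 14 were highest in the top class, against 2357 of the 7557 genes tested (31.2%), *AURKB* and *MELK* were highest at 10 to under 20 and *PKMYT1* at 1 to under 5 per 10000.

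Replication genes peaked lower on this scale. Of 41 licensing and fork genes, 28 were highest at 1 to under 5 per 10000, where 11.9% of all genes tested were highest, 8 at 5 to under 10, 4 at 10 to under 20 and 1 in the top class. *PCNA* was at 86.0 CPM (73.3–100), 136 (126–146), 219 (210–228), 172 (161–183), 134 (123–144) and 73.9 CPM (63.5–85.4), so that its lowest level was in the cells with most *TOP2A* and in those with none. The neighbouring classes differed beyond counting error throughout. The similar levels of *PCNA* in TOP2A-high and TOP2A-low cells were therefore sums over classes that differed from each other. *CDC6* followed the same order, from 49.3 to 100 and back to 31.7 CPM. Cyclin E genes, named after their values were seen, showed a wider range: *CCNE1* was at 29.9 CPM (26.6–33.4) at 1 to under 5 and at 2.84 CPM (1.14–5.85) in the top class, and *CCNE2* at 21.1 CPM (18.4–24.1) and 1.22 CPM (0.251–3.56).

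*RRM2* and *HIST1H4C* peaked between the 2 patterns. *RRM2* was highest at 5 to under 10 (234 CPM, 221–247) and lower in the top class (150 CPM, 135–166). *HIST1H4C* was at 367, 490, 1436, 2434, 2494 and 1127 CPM over the classes, so its level in the top class was under that at 1 to under 5. *CDKN1A* ran the other way, from 72.4 CPM (60.8–85.5) in cells with no *TOP2A* UMI to 28.4 CPM (22.1–35.9) in the top class. Of the 27 genes at least 2-fold lower in TOP2A-high cells, 17 were highest at 0 and 7 at above 0 to under 1, classes that make up the TOP2A-low group. Of all genes tested, 21.4% were highest at 0 and 9.75% at above 0 to under 1. The 27 genes were picked for a higher level in the TOP2A-low group, so a peak there was largely set by that choice.

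**Figure D4:**
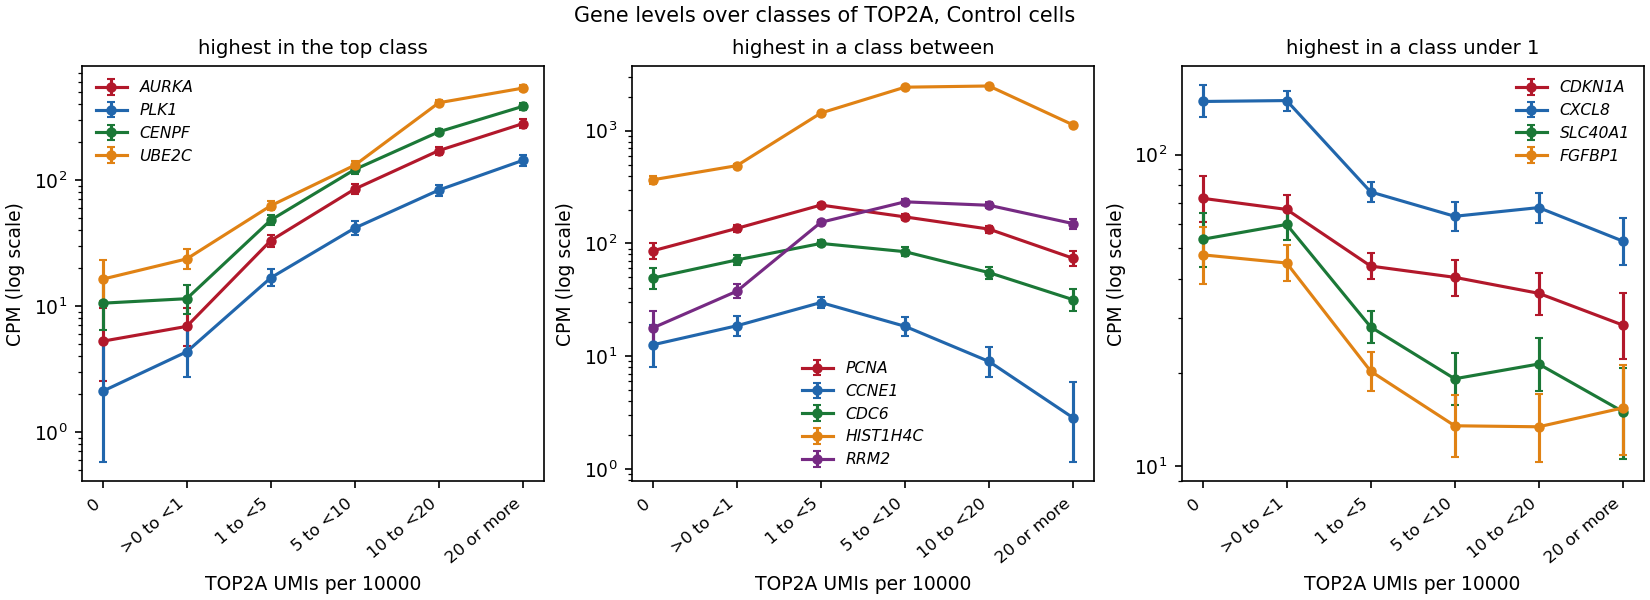
CPM (log scale) of 13 genes over 6 classes of *TOP2A* UMIs per 10000 in Control cells, with exact Poisson 95% intervals, in panels by the class where the gene was highest. *AURKA* climbs from 5.24 to 280 CPM, *PCNA* peaks at 219 CPM at 1 to under 5 per 10000, and *CDKN1A* runs from 72.4 to 28.4 CPM.

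Phases were called from the S and G2/M gene lists of Seurat without *TOP2A* (42 and 53 genes), which share genes with the mitosis and replication lists above. Of TOP2A-high cells, 83.7% (79.6–87.3%) were called G2/M, 14.7% (11.2–18.7%) S and 1.60% (0.589–3.45%) G1. Of TOP2A-low cells, 72.2% (66.0–77.9%) were called G1, 25.6% (20.2–31.7%) S and 2.14% (0.697–4.92%) G2/M. TOP2A-middle cells lay between, with 25.9% G1, 50.3% S and 23.8% G2/M. With each cell thinned to 18000 UMIs, 82.8% of TOP2A-high cells were called G2/M and 80.7% of TOP2A-low cells G1. The share of TOP2A-low cells called S was then 17.5% (12.6–23.2%), with an interval that overlapped the one before thinning. Thinning and the loss of cells with fewer UMIs came together, so their parts in this change were not told apart. The TOP2A-low group therefore held cells called S as well as G1, and it shared the S call with the TOP2A-high group.

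Genes that were lower in TOP2A-high cells were fewer, and the 2 described first rested on few cells. *IGFL1*, a secreted factor of the IGFL family, had the lowest log2 ratio, -2.43 (-2.73 to -2.14), with 10.0 against 54.3 CPM. It was found in 31 TOP2A-high and 30 TOP2A-low cells, and 1 cell held 33.8% of its UMIs in TOP2A-high and 1 cell 32.1% in TOP2A-low cells. *SPANXB1*, a member of a family of near-identical X-linked genes, had a log2 ratio of -1.49, but single cells held 82.7% and 54.9% of its UMIs. With the cell of most UMIs left out in each group, an alternative chosen after seeing the data, its log2 ratio was -2.88, and with the groups made again on counts thinned to 18000 UMIs a cell it was 3.99, so its direction was not stable.

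The other genes of this side were found in more cells or with UMIs more evenly spread. *FGFBP1*, a secreted FGF-binding protein, was at 13.8 CPM (11.9–16.0) in TOP2A-high and 45.7 CPM (40.8–51.0) in TOP2A-low cells, with UMIs in 18.9% and 29.5% of cells. The iron exporter *SLC40A1* was at 19.2 against 58.0 CPM (log2 ratio -1.60), and *SDCBP2*, the syntenin-2 gene, at 12.9 against 38.7 CPM (-1.59). The chemokine *CXCL8* was at 62.9 CPM (58.7–67.4) against 149 CPM (140–158), although about the same share of cells held a *CXCL8* UMI (55.7% and 56.0%) and its highest single-cell values were 11.2 and 27.8 per 10000. The growth factor *HBEGF* (-1.24), *YPEL5* (-1.20), the vault protein *MVP* (-1.18), *C15orf48* (-1.25), the retinol dehydrogenase *DHRS9* (-1.29) and *FBXL20* (-1.18) completed the 12 lowest. Of the 12, *CXCL8* and *YPEL5* had a median above 0 in TOP2A-low cells (0.328 and 0.300 per 10000), and *CXCL8* had one in TOP2A-high cells also (0.255 per 10000).

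Among abundant genes the lowest ratios were small. The keratin *KRT17* was at 346 against 563 CPM (-0.70), *CRCT1* at 271 against 438 CPM (-0.70), the long nuclear RNA *NEAT1* at 434 against 690 CPM (-0.67), *SH3BGRL3* at 329 against 516 CPM (-0.65) and the trypsinogen *PRSS3* at 191 against 291 CPM (-0.61). *NEAT1* was found in nearly every cell, with lowest, median and highest values of 0, 3.90 and 15 per 10000 in TOP2A-high cells and of 0.620, 5.67 and 34.4 in TOP2A-low cells. The medians of *KRT17* were alike (2.03 and 1.99 per 10000), so its difference in CPM lay in the upper range, with highest values of 34.0 and 68.7. *MALAT1*, the other long nuclear RNA of the list, was at 6049 against 5585 CPM (0.12). Per cell, without scaling to the total, the log2 ratios of *KRT17*, *NEAT1* and *PRSS3* were -0.50, -0.46 and -0.40, all within 1.5-fold.

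The lists of squamous epithelium, p53 target, epithelial and ovarian carcinoma, and EMT genes held 14, 19, 18 and 12 members. Only members with at least 10 CPM were compared, and 1.92% of all genes tested were lower. Of 6 squamous epithelium genes tested 3 were lower, *KRT13* (40.9 against 87.8 CPM, -1.10), *KRT17* and *CRCT1*, and 0 higher. *KRT13* was found in 32.5% of TOP2A-high and 36.3% of TOP2A-low cells. Of 11 p53 targets 2 were lower, the CDK inhibitor *CDKN1A* (36.5 CPM, 33.2–39.9, against 68.3 CPM, 62.3–74.7) and the kinase *PLK2* (10.9 against 18.6 CPM), and the median of the list was -0.07. Of 13 epithelial and ovarian carcinoma genes 2 were lower, *KRT19* (980 against 1480 CPM, -0.59) and the protease inhibitor *SLPI* (11.8 against 20.4 CPM, -0.79), and the others lay between -0.46 and 0.14. *SPP1*, osteopontin, was at 3856 against 4268 CPM and *LGALS3*, galectin-3, at 214 against 262 CPM, log2 ratios of -0.15 and -0.29. Of 4 EMT genes tested 2 were lower, among them *SOX4* (87.5 against 136 CPM), and *FN1* and *TGFBI* were at -0.41 and 0.16. *JUN* (44.9 against 80.4 CPM) was the lower and the chaperone *HSPH1* (78.5 against 38.8 CPM) the higher of 12 immediate early and heat shock genes.

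Most genes, 6879 of the 7557 tested, were within 1.5-fold, so short lists without a gene past it are not remarkable. Lists that held none past 1.5-fold were 13 glycolysis, 11 cholesterol synthesis, 8 interferon and antigen presentation and 13 mitochondrial genes. Their medians were -0.02, -0.06, -0.18 and 0.03. Of 83 cytosolic ribosomal protein genes 82 were within 1.5-fold, with a median of -0.15, and their summed level was 241488 CPM in TOP2A-high and 261288 CPM in TOP2A-low cells. Per cell the median of the ribosomal genes was 0.05. The exception, *RPL39L*, a copy of *RPL39*, was at 142 against 73.7 CPM.

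The effect of depth was examined in 3 ways. In one, UMIs of every cell were drawn down to 18000, and 37 TOP2A-high and 22 TOP2A-low cells with fewer were dropped. When the groups were made again on the thinned counts, 321 of the 338 remaining TOP2A-high cells stayed high and 17 became middle. Of the 212 remaining TOP2A-low cells, 168 stayed low and 44 became middle. Of the TOP2A-middle cells, 25 became high, 18 became low, 251 stayed middle and 30 with fewer UMIs were dropped. No cell changed between TOP2A-high and TOP2A-low, but this was largely set by the rule. TOP2A-low cells held at most 4 *TOP2A* UMIs, too few to reach the upper limit at 18000 UMIs. A TOP2A-high cell would have had to fall through the whole middle range. In the original groups, thinned counts gave 230 genes at least 2-fold higher, of which 199 were among the 210 (94.8% of the 210 and 86.5% of the 230), and 28 at least 2-fold lower, of which 19 were among the 27 (70.4% and 67.9%). In the groups made again, 235 genes were at least 2-fold higher, of which 189 were among the 210 (90.0% and 80.4%), and 23 at least 2-fold lower, of which 14 were among the 27 (51.9% and 60.9%). Weighting TOP2A-low cells to the depth of TOP2A-high cells in 10 classes of depth gave 255 and 33 genes, of which 206 and 23 were shared. The overlap was smaller at 1.5-fold. Thinned counts in the original groups then gave 647 higher genes, 465 of them among the 533 (87.2% of the 533 and 71.9% of the 647). They gave 179 lower genes, 115 of them among the 145 (79.3% and 64.2%). In the groups made again, 453 of 676 higher and 106 of 180 lower genes were shared, and with weighting 510 of 674 and 132 of 200.

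In another, the groups were compared within the shallower and the deeper cells, at or below and above the median of 30270 UMIs (149 and 226 TOP2A-high, 135 and 99 TOP2A-low cells). At 1.5-fold, shallower cells gave 559 higher genes, 385 of them among the 533, and 253 lower genes, 92 of them among the 145. Deeper cells gave 748 higher genes, 500 of them shared, and 198 lower genes, 124 of them shared. The median log2 ratio of the mitotic kinases and cyclins was 2.65 in shallower and 2.99 in deeper cells, that of spindle genes 3.05 and 3.00 and that of replication genes 0.32 and 0.45. The 12 highest genes stayed above 3 on the log2 scale in both classes. *CENPF* had the widest spread of these with 3.35 and 5.32, and *AURKA* was at 3.87 and 5.13. Of the 12 lowest genes, *SLC40A1* was at -0.83 and -2.02, and *IGFL1* at -4.70 and -1.48. All 12 were below 0 in both classes.

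In the last, cells of the same *TOP2A* group but different depth were compared. *TOP2A* was at 0.430 per 10000 in the deeper and 0.376 in the shallower TOP2A-low cells, and at 2.89 and 2.40 in TOP2A-middle cells. These contrasts therefore also held a difference in *TOP2A*. TOP2A-low cells above their own median of UMIs (117 cells, median 35234) were set against the others (117 cells, median 23424), a ratio of depth of 1.5 that exceeds the 1.16 between the groups. By the same limits, 167 genes (2.21%) were higher in the deeper and 233 (3.08%) higher in the shallower cells. In TOP2A-middle cells (162 and 162 cells, medians 35685 and 23557) the counts were 103 (1.36%) and 85 (1.12%). Of the 533 genes higher in TOP2A-high cells, 27 were higher and 53 lower in deeper TOP2A-low cells, with a median log2 ratio of -0.15, and 39 were higher and 6 lower in deeper TOP2A-middle cells, with a median of 0.08. Of the 145 lower genes, 13 were higher and 4 lower in deeper TOP2A-low cells, and 6 were higher and 7 lower in deeper TOP2A-middle cells. These splits held fewer cells than the main comparison, so their counts also hold more counting error.

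**Figure D5:**
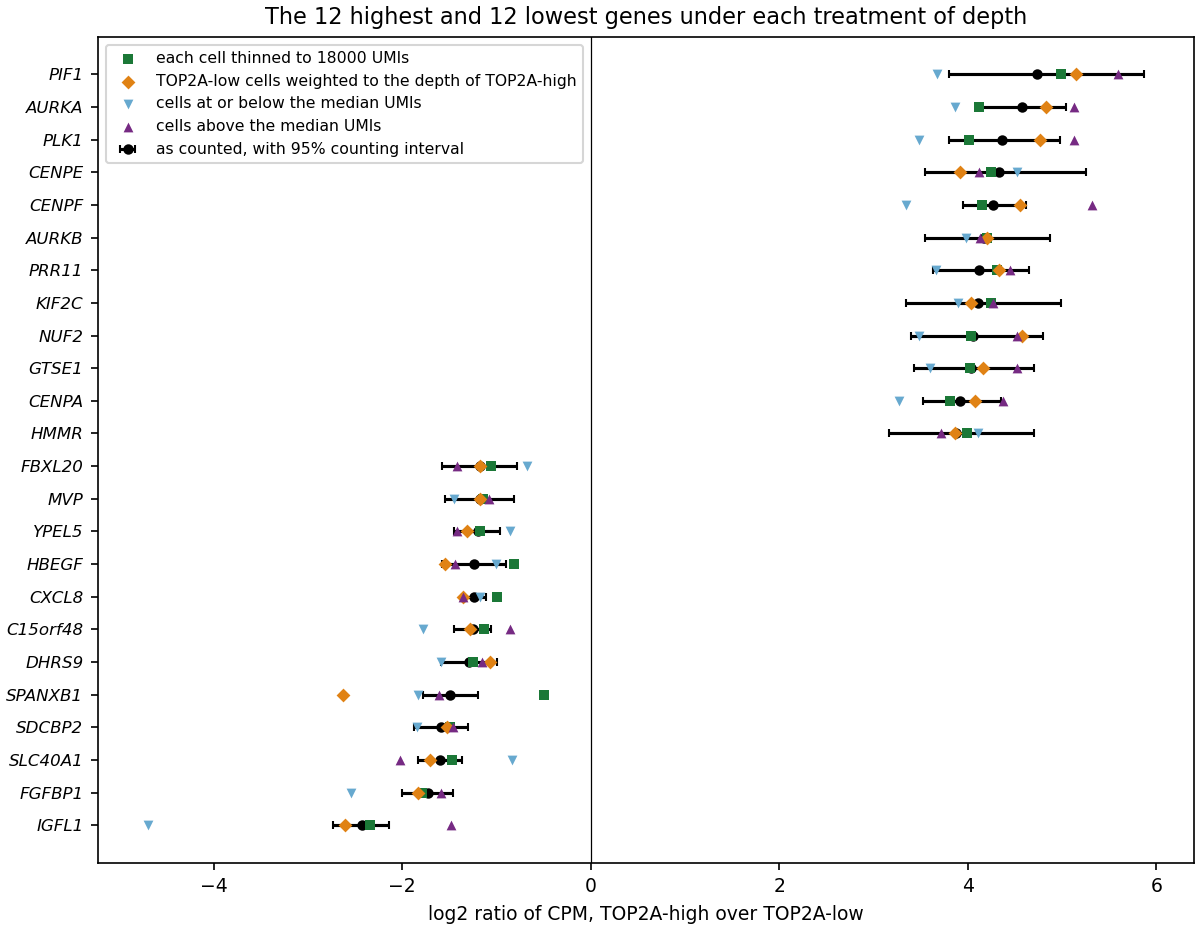
Log2 ratio of CPM between TOP2A-high and TOP2A-low Control cells for the 12 highest and 12 lowest genes, as counted (black, with exact conditional 95% interval) and under 4 treatments of depth. The 12 highest genes lie above 3 and the 12 lowest below 0 under each of these 4, and *IGFL1* spreads from -4.70 to -1.48. The genes were picked on these same cells, so their direction was largely set by that choice. Groups made again on thinned counts are not plotted, and there *SPANXB1*, among the 12 lowest, was at 3.99.

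The same rule was applied to each treated library, where it gave 90 TOP2A-high and 729 TOP2A-low cells at 1-day, 173 and 363 at 3-day and 174 and 234 at 7-day. The median UMIs per cell of the 2 groups were 42178 and 32161, 51233 and 40875, and 47168.5 and 42576. Of the 7557 genes, 1018 (13.5%) were higher and 311 (4.12%) lower at 1-day, 982 (13.0%) and 248 (3.28%) at 3-day, and 1165 (15.4%) and 313 (4.14%) at 7-day. These genes passed the limit of 10 CPM in Control cells only, so genes with few UMIs in a treated library were counted too. The shares are therefore not directly comparable with those of Control. Of the 210 genes at least 2-fold higher in Control, 208, 203 and 203 were at least 1.5-fold higher at 1-, 3- and 7-day, with median log2 ratios of 3.21, 2.78 and 2.41. Of the 27 genes at least 2-fold lower, 15, 19 and 16 were at least 1.5-fold lower, with medians of -0.69, -0.82 and -0.67. The genes were picked on Control cells, which the treated libraries do not hold, and each library has no replicate, so differences between them were not tested.

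*AURKA* had a log2 ratio of 5.07, 4.69 and 3.99 at 1-, 3- and 7-day, beside 4.58 in Control. Replication genes had medians of 2.11, 1.32 and 1.38, beside 0.36 in Control, with *PCNA* at 1.55, 1.14 and 1.15, beside 0.18. The TOP2A-low groups were not alike across libraries. Their median *TOP2A* was 0, 0.129 and 0.187 per 10000 at 1-, 3- and 7-day, beside 0.402 in Control, and its bearing on these ratios was not tested. *HIST3H2A*, at 1.38 in Control, was at 0.59, -0.30 and -0.53, and *TOP2B* stayed near 0 in all 4 libraries (-0.02 in Control, then -0.03, -0.25 and -0.06). *CDKN1A*, at -0.91 in Control, was at -0.52, -0.29 and -0.63, and *JUN*, at -0.84, was at 0.10, 0.06 and 0.04. *MVP* and *YPEL5* were lower by at least 1.5-fold in every library, at -1.25, -1.5 and -1.5 and at -0.83, -0.97 and -1.40 in the treated ones.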

How the data were processed

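Single-cell 3′ RNA-seq was performed on OVCA420 cells, 1 library per time point. Per the study's methods and the submitters' processing notes, the authors aligned reads to GRCh38 and made the deposited UMI counts per gene and cell with Cell Ranger 2.0.1. Each matrix analysed here holds the first part of the listed cells, 941 of 3372 for Control, so shares refer to these cells. Their depth was 8455 to 141664 UMIs.

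Cells with more than 200 genes and at most 20% mitochondrial UMIs were retained. UMIs were summed over the cells of each group and scaled to CPM, and genes with at least 10 CPM over all retained Control cells were compared, *TOP2A* left out. Exact 95% intervals are Poisson for CPM, conditional binomial for ratios and Clopper-Pearson for shares. Cells are not replicates, so no test was run. The members and lists were chosen with earlier results of these data known. Named genes were the 12 highest and 12 lowest ratios, the 5 highest and 5 lowest among genes with at least 200 CPM, up to 4 members of each list with the largest ratios, the other topoisomerases, *MKI67*, *PCNA*, *SPP1*, *KRT13* and *LGALS3*. Any other gene, such as a list's exceptions, was chosen after its value was seen. Doublets were called with Scrublet in scanpy 1.11.5. Cell cycle phases were scored with genes supplied in Seurat 5.3.0. Scripts used Python 3.11.15, numpy 2.4.6, scipy 1.17.1, pandas 2.3.3 and matplotlib 3.10.9, and were tested on simulated data. Gene positions are from GENCODE 44. Alternatives were other limits for the groups, thinning, depth weighting, shallower and deeper cells, scalings, filters, and leaving out doublets. Leaving out shared barcodes and leaving out the cell of most UMIs were chosen after seeing the data. Values of 2 list members are not reported here.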

Additional observations from a re-analysis of the deposited data

Results flagged for a closer look

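Of the named genes, 2 were at least 1.5-fold lower in TOP2A-high cells of Control and at least 1.5-fold higher in those of a treated library, and neither difference between libraries was tested, as each library is 1 sample. *DHRS9* had a log2 ratio of -1.29 in Control and of 0.89 (-0.90 to 2.85) at 7-day, where it was at 0.920 and 0.496 CPM and the counting interval held 0. *SPANXB1* had a log2 ratio of -1.49 in Control and of 1.41 (1.15–1.67) at 1-day, where it was at 43.0 and 16.2 CPM and 1 cell held 98.8% of the TOP2A-high UMIs.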

How the results depend on the processing

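No paired analysis was possible because both groups are cells of 1 library. As reported, 533 genes were at least 1.5-fold higher and 145 lower, 210 and 27 at least 2-fold, and the ratio of median UMIs was 1.16. Unscaled UMIs per cell gave 1187 and 56, and 9 at least 2-fold lower. TOP2A-low cells without a *TOP2A* UMI gave 969, 345, 358 and 50. A filter of 50 CPM gave 123, 18, 55 and 3, and no filter 1862, 1486, 885 and 734, as fewer or more genes were compared. Cells at or below the median UMIs gave 253 lower and 41 at least 2-fold lower genes. The 2-fold lower count was 13 with TOP2A-high at 3 or more, 43 at 10 or more and 17 with limits on raw *TOP2A* UMIs. The ratio of median UMIs was 0.969 at or below and 1.07 above the median by construction, 1.27 at 10 or more, 1.23 without a *TOP2A* UMI and 1.34 by raw UMIs. *SPANXB1* changed sign, to 3.99 with groups made again on thinned counts and to 2.25 against cells without a *TOP2A* UMI. Except where stated, the cause was not tested. Of the values of 121 named genes over 16 alternatives, 1576 stayed within their counting interval and 358 moved beyond it. The other 2, both of *SPANXB1*, were counted as reversed. Small changes of sign near 0 were not counted as reversed. Per cell without scaling, for example, the median log2 ratio of the other topoisomerases went from -0.02 to 0.19. Counting error limits genes of low CPM most, and the spread between cultures was not measured.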
